A study of Mus musculus with 50 samples.

Results

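The genes described here are 36 genes of blood and lymphatic endothelium, written as a list by name and read in whole colon RNA of mice. Of these, 35 had a named probe set, among 19494 genes tested, and Egfl7 was not analysed here. Where several probe sets named a gene, the one with the highest mean was read. The list holds 8 junction and surface genes, 8 receptors, 4 measured genes of secreted proteins, 4 transcription factor genes, 6 leukocyte adhesion genes, 4 lymphatic genes and Nos1ap, an adaptor of the neuronal nitric oxide synthase.

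Endothelial cells line every vessel, are held together by VE-cadherin, PECAM1 and claudin-5, and depend on VEGF and angiopoietin receptors. In the gut, venules that meet inflammatory cytokines display selectins and the adhesion molecules ICAM1, VCAM1 and MAdCAM1, on which leukocytes roll and stop. Lymphatic vessels, set apart by PROX1 and LYVE1, drain fluid, absorbed lipid and immune cells from the colon wall, and their chemokine CCL21 attracts dendritic cells and T cells.

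The study asked what loss of FADD or caspase-8 in the intestinal epithelium does to the colon, and which necroptosis genes are needed for it. Colon of 50 mice was profiled on 1 array per mouse, 5 arrays in each of 10 groups. Array titles run in 2 number series, and each comparison was kept within a series unless stated. In titles 1 to 30 the control was Fadd fl/fl, and FADD IEC-KO was present alone, with Zbp1 -/- and with Mlkl -/-, and CASP8 IEC-KO alone and with Mlkl -/-. In titles 86 to 124 the control was Casp8 fl/fl, with CASP8 IEC-KO alone and FADD IEC-KO alone or together with RIPK3 IEC-KO. IEC-KO is a deletion in intestinal epithelial cells, by a Cre driver not given in the sources used here, and Zbp1 -/- and Mlkl -/- are written as null alleles without such a limit. The floxed controls carry the loxP alleles of 1 gene each, so in titles 1 to 30 CASP8 IEC-KO was set against Fadd fl/fl, and in titles 86 to 124 FADD IEC-KO was set against Casp8 fl/fl. Sample labels give an age of 11 weeks and the series text 10 to 12 weeks. All mice ate regular chow in a specific pathogen free facility.

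The deletions were epithelial or, for Zbp1 and Mlkl, not limited to a tissue, whereas the RNA came from all cells of the colon. Fewer endothelial cells and less RNA per endothelial cell therefore cannot be told apart. Several of these genes also have other sources: Lyve1, Vcam1 and Icam1 in macrophages, Fli1 in blood cells, Selp in platelets and Prox1 in enteroendocrine cells. Values are log2 signals. With 1 array per mouse, the tests set differences against the spread between mice, pooled over all 10 groups, and the 5 arrays per group limit the precision. Groups differed in spread. A lower group weight stands for a wider spread, and the weights ran from 0.65 in FADD IEC-KO of titles 1 to 30 to 1.44 in CASP8 IEC-KO Mlkl -/-. Fits of the compared arrays alone and fits with group weights are therefore given too. Differences are given with the SE of the limma fit over all arrays, and a gene is said to rise or fall where its adjusted p was under 0.05 over all 19494 genes. No detection calls were at hand, so no gene was called absent.

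Fadd had group means of 6.14 to 6.39 in the 5 groups with FADD IEC-KO and 7.30 to 7.61 in the others, and Casp8 of 8.98 to 9.14 in the 3 groups with CASP8 IEC-KO and 10.20 to 10.80 in the others. Libraries within FADD IEC-KO differed in their content of neutrophil genes. The mean over 10 neutrophil genes was 8.69 in replicate 22 and 7.43 in replicate 23 of FADD IEC-KO in titles 1 to 30, against 4.89 to 5.47 in the other 3 and 4.66 to 4.73 in Fadd fl/fl. In titles 86 to 124 it was 7.84 in replicate 117 and 6.44 in replicate 124, against 4.68 to 4.82 in the other 3 and 4.67 to 4.96 in Casp8 fl/fl. Comparisons that use FADD IEC-KO are therefore also given without replicates 22 and 23 or without 117 and 124.

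Promoters are shown for the adhesion genes that rose in FADD IEC-KO, where the reference table holds them, and for the lymphatic genes Mmrn1 and Ccl21a that rose with Zbp1 loss. The sequences are RefSeq's for GRCm38.p6, the 250 bases before the start of the gene on its own strand, 5′ to 3′. Of the 36 genes, 21 have a promoter in the table, and Vcam1 and Lyve1 are not printed. Capitals mark GGAANTTCC, a palindrome that NF-kappaB can bind, searched on both strands. The motif was chosen after the promoters had been seen.
Icam1, chr9:21015690-21015939, plus strand: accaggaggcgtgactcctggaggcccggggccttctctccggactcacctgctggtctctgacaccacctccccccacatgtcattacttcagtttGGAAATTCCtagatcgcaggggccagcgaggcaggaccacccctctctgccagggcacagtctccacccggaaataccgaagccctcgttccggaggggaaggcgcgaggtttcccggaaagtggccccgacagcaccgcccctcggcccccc
Madcam1, chr10:79664309-79664558, plus strand: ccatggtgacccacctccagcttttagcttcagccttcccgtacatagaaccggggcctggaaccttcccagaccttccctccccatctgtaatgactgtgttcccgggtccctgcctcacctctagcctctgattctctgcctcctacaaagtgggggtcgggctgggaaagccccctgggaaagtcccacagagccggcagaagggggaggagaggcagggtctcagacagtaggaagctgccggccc
Selp, chr1:164115014-164115263, plus strand: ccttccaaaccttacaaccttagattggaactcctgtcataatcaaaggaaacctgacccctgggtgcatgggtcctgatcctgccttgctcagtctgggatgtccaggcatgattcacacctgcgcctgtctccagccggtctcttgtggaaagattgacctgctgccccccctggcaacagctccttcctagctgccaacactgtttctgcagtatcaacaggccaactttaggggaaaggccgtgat
Mmrn1, chr6:60944067-60944316, plus strand: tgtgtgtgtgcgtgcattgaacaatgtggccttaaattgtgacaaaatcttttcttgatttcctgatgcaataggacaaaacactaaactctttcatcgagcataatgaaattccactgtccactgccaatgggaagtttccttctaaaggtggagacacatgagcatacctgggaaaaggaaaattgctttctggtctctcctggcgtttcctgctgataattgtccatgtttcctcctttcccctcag
Ccl21a, chr4:42773992-42774241, minus strand: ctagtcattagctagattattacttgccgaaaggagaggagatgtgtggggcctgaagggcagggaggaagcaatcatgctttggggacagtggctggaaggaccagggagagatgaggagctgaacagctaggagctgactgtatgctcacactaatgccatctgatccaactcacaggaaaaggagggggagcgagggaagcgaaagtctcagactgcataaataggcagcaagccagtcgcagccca
The Icam1 promoter held the motif, as GGAAATTCC from 153 bases before the start, and no other of the 21 genes with a promoter did. Among all 32851 promoters of the table, 0.813% held it. This is a match of letters to this palindrome only, and NF-kappaB sites spelled otherwise are not marked. No match says only that these letters are not in this window, not that the promoter lacks an NF-kappaB site.

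Leukocyte adhesion genes rose in FADD IEC-KO of titles 1 to 30, while none of 8 junction and surface genes passed in limma, beside 2 at an unadjusted p under 0.05. Against Fadd fl/fl, 18.7% of all genes tested passed, 8.59% higher and 10.1% lower. Of the 35 vessel genes 9 passed, 5 higher and 4 lower, and 4 of the 5 that rose were among the 6 leukocyte adhesion genes. The median difference was -0.09 over the 35 genes and 0.71 over the 6 adhesion genes, beside -0.02 over all genes. Outside the adhesion genes, 24 of 29 values were lower and 5 higher, with a median of -0.10. The groups did not overlap for Vcam1, Lyve1 and Nos1ap, 3 of 35 genes beside 9.2% of all genes.

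Selp encodes P-selectin, which endothelial cells and platelets store and display to catch leukocytes. Its signals were 5.14, 8.08, 6.49, 5.37 and 4.84 in FADD IEC-KO replicates 21 to 25 and 5.11, 4.57, 4.30, 4.30 and 4.90 in Fadd fl/fl replicates 26 to 30. Replicates 22 and 23 stood above all controls by more than 1 unit, and the other 3 lay within or just above the control range, so the groups overlapped. The difference was 1.35 ± 0.38 (SE, limma adjusted p = 0.00979), a fold of 2.55.

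Vcam1, the ligand of the integrin VLA-4, was at 6.74, 7.68, 7.55, 6.67 and 7.51 in FADD IEC-KO and at 6.30, 6.38, 6.36, 6.66 and 6.56 in Fadd fl/fl. The groups did not overlap, though replicates 21 and 24 were near the highest control. The difference was 0.78 ± 0.21 (limma adjusted p = 0.00834). Madcam1, which guides gut-homing lymphocytes that carry the integrin alpha4 beta7, was at 5.61, 6.97, 6.74, 5.14 and 6.58 against 5.33, 4.96, 5.26, 5.96 and 5.60. Replicates 22, 23 and 25 were above every control, and replicates 21 and 24 were among them. Madcam1 differed by 0.79 ± 0.22 (limma adjusted p = 0.00802).

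Icam1, the ligand of the leukocyte integrin LFA-1 and the gene whose promoter held the motif, was at 6.74, 7.96, 7.31, 6.64 and 7.25 against 6.43, 6.36, 6.70, 6.59 and 6.64. Replicate 24 alone overlapped the controls. The difference was 0.64 ± 0.18 (limma adjusted p = 0.00974). Sele, which encodes E-selectin, differed by 0.21 and Ackr1, the chemokine receptor of venules, by -0.04, and neither passed. Without replicate 22 5 of the 9 calls were left, and those of Selp (0.83, adjusted p = 0.0995), Madcam1 (0.60, adjusted p = 0.0624) and Icam1 (0.44, adjusted p = 0.0858) were lost in the same limma fit. Without both replicates 22 and 23, 3.5% of all genes and 2 of the 35 vessel genes passed in limma, Nos1ap and Aplnr, and Selp differed by 0.48, Vcam1 by 0.52, Madcam1 by 0.36 and Icam1 by 0.33, none of which passed. In a fit of the compared arrays alone, the limma adjusted p was 0.103 for Selp, 0.138 for Madcam1 and 0.0722 for Icam1, and these 3 calls were lost too.

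**Figure D1:**
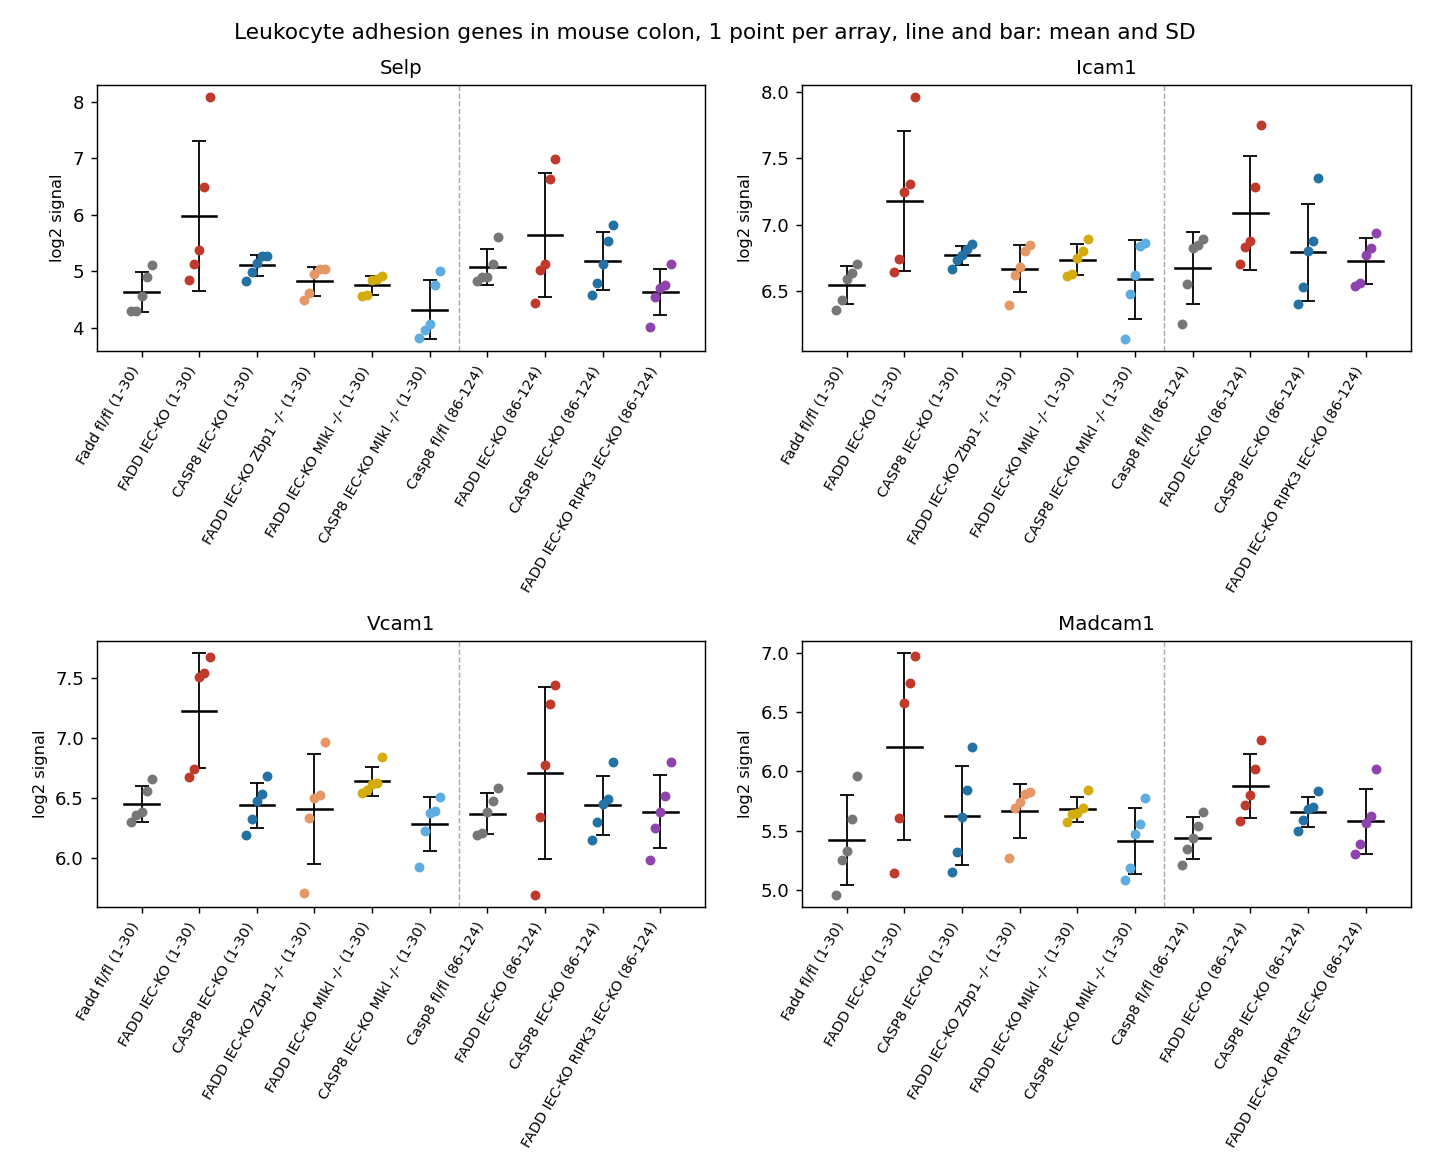
Log2 signal of Selp, Icam1, Vcam1 and Madcam1 (vertical axes) in the 10 groups (horizontal axis), 1 point per array, with the group mean as a line and the SD as a bar. In FADD IEC-KO the highest Selp points are 8.08 and 6.49 in titles 1 to 30 and 6.98 and 6.64 in titles 86 to 124, while the co-deletion groups stay between 3.83 and 5.12.

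Some marker genes of neutrophils, macrophages, T cells and plasma cells rose as well. In FADD IEC-KO of titles 1 to 30 against Fadd fl/fl, 7 of 10 neutrophil genes, 8 of 11 macrophage genes, 4 of 8 T cell genes and 5 of 6 plasma cell genes passed higher, and 2 macrophage genes passed lower. Of all genes 8.59% passed higher and 10.1% lower. All 14 interferon-gamma response genes and 11 of 13 TNF and NF-kappaB response genes passed higher. The mean over 9 B cell and lymphoid follicle genes was 5.63 to 7.10 in FADD IEC-KO and 5.59 to 6.48 in Fadd fl/fl, so the groups overlapped. The 6 adhesion genes averaged 6.78 in replicate 22 and 6.15 in replicate 23, the 2 arrays with the highest neutrophil means, and 5.46 to 5.73 in the other 3. Of 6 platelet genes measured none passed higher and 2 passed lower, Gp6 by -0.54 ± 0.17 (limma adjusted p = 0.0178) and Pf4 by -0.37 ± 0.13 (limma adjusted p = 0.046). Without replicates 22 and 23, Gp6 differed by -0.36 and Pf4 by -0.38, and neither passed. The part of leukocytes and platelets in the adhesion signals was not tested.

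Fli1, an ETS transcription factor of endothelium and blood cells, was the fifth gene that rose. Its signals were 6.74, 6.86, 6.96, 6.41 and 7.18 in FADD IEC-KO and 5.97, 5.95, 6.09, 6.36 and 6.72 in Fadd fl/fl. Replicate 24 lay within the control range and replicate 21 just above it. Fli1 differed by 0.61 ± 0.18 (limma adjusted p = 0.0131) and by 0.56 without replicates 22 and 23 (limma adjusted p = 0.122). Erg, its close relative in endothelium, differed by -0.01, and the SOX factor gene Sox17 by -0.10, and neither passed.

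Lyve1, Tek, Nos1ap and Aplnr fell in the same comparison. Lyve1 encodes the hyaluronan receptor of lymphatic endothelium. It was at 7.87, 7.04, 7.15, 7.27 and 6.95 in FADD IEC-KO and at 8.21, 7.91, 8.09, 7.99 and 8.11 in Fadd fl/fl. The groups did not overlap, with replicate 21 just under the lowest control. Lyve1 differed by -0.80 ± 0.22 (limma adjusted p = 0.00693) and by -0.69 without replicates 22 and 23 (limma adjusted p = 0.106).

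Tek encodes TIE2, the receptor of the angiopoietins. It was at 5.94, 5.66, 5.47, 5.46 and 5.23 in FADD IEC-KO and at 6.10, 5.83, 5.74, 6.33 and 6.52 in Fadd fl/fl. Only replicate 21 lay within the control range, above its 2 lowest arrays. The difference was -0.55 ± 0.19 (limma adjusted p = 0.0325). That call was lost on leaving out any 1 of Fadd fl/fl replicates 26, 29 and 30 and FADD IEC-KO replicates 22 to 25, with limma adjusted p values of up to 0.113 for Tek. Without both replicates 22 and 23 Tek differed by -0.56 (limma adjusted p = 0.14). The Tek call was also lost in a fit of the compared arrays alone, with group weights and with both series pooled (limma adjusted p of 0.0541, 0.0672 and 0.118).

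Aplnr, the apelin receptor of venous and sprouting endothelium, was at 5.62, 5.96, 5.79, 5.57 and 5.32 against 5.85, 5.89, 5.87, 6.40 and 6.30. Replicate 22 alone overlapped the controls. Aplnr differed by -0.41 ± 0.15 (limma adjusted p = 0.0439), a call lost without any 1 of Fadd fl/fl replicates 29 and 30 and FADD IEC-KO replicates 21 and 23 to 25 (limma adjusted p up to 0.144). It was also lost with quantile normalization, in a fit of the compared arrays alone, with group weights and with both series pooled (limma adjusted p of 0.0514, 0.0949, 0.0729 and 0.112), whereas without both replicates 22 and 23 Aplnr differed by -0.56 and passed just under the threshold (limma adjusted p = 0.0499). The other 6 receptors, among them the VEGF receptor genes Kdr, Flt1 and Flt4, did not pass.

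Nos1ap kept its call under all 18 alternatives tried for it. Its signals were 8.03, 7.58, 7.82, 7.92 and 7.93 in FADD IEC-KO and 8.21, 8.36, 8.50, 8.36 and 8.13 in Fadd fl/fl. The groups did not overlap. The difference was -0.46 ± 0.10 (limma adjusted p = 0.000762), and -0.36 without replicates 22 and 23 (limma adjusted p = 0.05, just under the threshold). The protein is known mainly from neurons and muscle, so the gene marks no vessel by itself. Over the same arrays all 14 smooth muscle genes passed lower, with a median of -1.16, and their mean was 8.62 to 10.12 in FADD IEC-KO against 10.29 to 10.48 in Fadd fl/fl. All 9 fibroblast genes were lower and 5 of them passed, with a median of -0.52, and their mean was 8.30 to 8.96 against 9.12 to 9.43. Without replicates 22 and 23, 7 smooth muscle genes and 6 fibroblast genes passed lower. Of 10 epithelial genes 3 passed higher and 1 lower, and of 8 hypoxia genes 3 passed higher. The part of muscle and fibroblasts in the Nos1ap, Lyve1, Tek and Aplnr values was not tested.

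In titles 86 to 124, FADD IEC-KO against Casp8 fl/fl had 11% of all genes called, 6.8% higher and 4.25% lower, and 3 of the 35 vessel genes, each lower. They were Pecam1, Emcn and Nos1ap, of which Pecam1 was left in limma without replicates 117 and 124, beside 5.29% of all genes. The count was 1 without FADD IEC-KO replicate 117 or Casp8 fl/fl replicate 86 and 5 without FADD IEC-KO replicate 95. The list median was -0.14. Pecam1, the adhesion molecule of all endothelial borders, was at 7.22, 7.70, 7.40, 7.00 and 7.40 in FADD IEC-KO replicates 89, 95, 117, 120 and 124 and at 7.78, 7.79, 7.70, 7.86 and 7.81 in Casp8 fl/fl replicates 86, 91, 98, 105 and 119. The groups met at 7.70 without overlapping. Pecam1 differed by -0.44 ± 0.12 (limma adjusted p = 0.0144), by -0.36 without replicate 120 (limma adjusted p = 0.0614) and by -0.48 without replicates 117 and 124 (limma adjusted p = 0.04). In a fit of the compared arrays alone none of the 3 calls was left, with limma adjusted p of 0.0572 for Pecam1, 0.103 for Emcn and 0.105 for Nos1ap.

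Emcn encodes endomucin, a sialomucin of capillaries and veins. It was at 6.25, 6.78, 6.23, 6.07 and 6.61 in FADD IEC-KO and at 7.00, 6.59, 6.87, 6.77 and 6.88 in Casp8 fl/fl. Replicates 95 and 124 lay above the lowest control and the other 3 below all controls. The difference was -0.43 ± 0.14 (limma adjusted p = 0.0318), a call lost without any 1 of FADD IEC-KO replicates 89, 117 and 120 or Casp8 fl/fl replicates 86, 98 and 119 (limma adjusted p up to 0.103), without both replicates 117 and 124 (-0.46, limma adjusted p = 0.0819) and with group weights (limma adjusted p = 0.074).

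Nos1ap was lower here as well, at 8.05, 8.11, 7.95, 7.80 and 7.80 against 8.25, 8.26, 8.15, 8.41 and 8.15. The groups did not overlap. Nos1ap differed by -0.30 ± 0.10 (limma adjusted p = 0.0336), a call lost without any 1 of FADD IEC-KO replicates 117, 120 and 124 or Casp8 fl/fl replicates 86, 91 and 105 (limma adjusted p up to 0.0964), without both replicates 117 and 124 (limma adjusted p = 0.18) and with group weights (limma adjusted p = 0.0728). Of 14 smooth muscle genes 6 passed lower in this comparison, and their mean was 8.54 in replicate 117 and 9.45 to 10.34 in the other 4. All 9 fibroblast genes were lower and 3 passed, with a median of -0.29, and their mean was 8.36 to 9.31 against 8.98 to 9.22 in Casp8 fl/fl. Without replicates 117 and 124 no smooth muscle or fibroblast gene passed in limma, beside 0 and 3 at an unadjusted p under 0.05. Of 10 epithelial genes 3 and of 8 hypoxia genes 4 passed higher. The part of muscle and fibroblasts in the Pecam1, Emcn and Nos1ap values was not tested.

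For Eng and Tie1, as for Pecam1 and Nos1ap, the groups did not overlap in titles 86 to 124, 4 of 35 genes beside 6.99% of all genes, but the limma test of Eng and Tie1 did not pass. Eng, which encodes the TGF-beta co-receptor endoglin, was at 8.08, 8.79, 8.26, 7.95 and 8.16 in FADD IEC-KO and at 7.83, 7.77, 7.89, 7.88 and 7.59 in Casp8 fl/fl, a difference of 0.46 ± 0.18 (limma adjusted p = 0.0981). Tie1, the orphan partner of TIE2, was at 6.02, 6.26, 6.35, 6.43 and 6.39 against 6.69, 6.58, 6.48, 6.85 and 6.47, a difference of -0.33 ± 0.12 (limma adjusted p = 0.0654). Eng was thus higher in every FADD IEC-KO array of that series while the junction gene Pecam1 was lower. Without replicates 117 and 124 Eng differed by 0.48 (limma adjusted p = 0.2). In titles 1 to 30 Eng differed by -0.10, with overlapping groups, and by -0.33 without replicates 22 and 23.

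The adhesion genes of this series gave 5 of 6 values higher and none that passed in limma, beside 2 at an unadjusted p under 0.05. Selp was at 4.44, 5.13, 6.98, 5.02 and 6.64 in FADD IEC-KO and at 4.83, 4.90, 5.61, 4.90 and 5.12 in Casp8 fl/fl. Replicates 117 and 124, the arrays with the highest neutrophil means, exceeded all controls and the other 3 did not. The differences were 0.57 ± 0.38 for Selp (limma adjusted p = 0.357), 0.44 ± 0.22 for Madcam1 (limma adjusted p = 0.186), 0.41 ± 0.18 for Icam1 (limma adjusted p = 0.126) and 0.34 ± 0.21 for Vcam1 (limma adjusted p = 0.329). Without replicates 117 and 124 they were -0.21, 0.26, 0.13 and -0.10. Neutrophil genes gave 2 of 10 higher, macrophage genes 7 of 11, interferon-gamma response genes 11 of 14 and TNF and NF-kappaB response genes 3 of 13.

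The difference in the FADD IEC-KO effect between the number series was tested as an interaction, and 0.123% of all genes and none of the 35 vessel genes passed in limma, beside 4 at an unadjusted p under 0.05. Floxed controls of different genes stand in the 2 series, so the control allele and the series cannot be told apart in it. The difference of effects, second series minus first, was -0.78 ± 0.54 for Selp (limma adjusted p = 0.63), 0.56 ± 0.26 for Eng (limma adjusted p = 0.425) and -0.58 ± 0.20 for Vwf, the gene of von Willebrand factor (limma adjusted p = 0.239). None of the 35 passed without replicates 117 and 124 or without 22 and 23 either, beside 8 and 2 at an unadjusted p under 0.05 in limma. Without 117 and 124 the difference was -1.56 for Selp (limma adjusted p = 0.0762), 0.58 for Eng and -0.66 for Vwf, with 2.68% of all genes called, and without 22 and 23 it was 0.09 for Selp, 0.78 for Eng and -0.41 for Vwf, with 0.0616% called.

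CASP8 IEC-KO against Casp8 fl/fl in titles 86 to 124 had 2.46% of all genes called, 1.8% higher and 0.662% lower, and 2 of the 35 vessel genes, Pecam1 and Lyve1, both lower and both without overlap between groups, beside 2.93% of all genes. Of the 35 values 27 were lower, with a median of -0.15. Pecam1 was at 7.04, 7.30, 7.44, 7.18 and 7.49 in CASP8 IEC-KO replicates 87, 92, 100, 104 and 108, all below the Casp8 fl/fl arrays given above. Pecam1 differed by -0.49 ± 0.12 (limma adjusted p = 0.0248). Lyve1 was at 7.33, 7.21, 7.85, 6.63 and 7.74, all below Casp8 fl/fl at 8.19, 7.94, 8.14, 8.39 and 8.22. Lyve1 differed by -0.82 ± 0.22 (limma adjusted p = 0.0311).

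Neither call held in every fit that left out 1 array, though both genes stayed lower. The count was 0 without any 1 of replicates 87, 104, 105 and 119, 1 without replicate 91 and 4 without replicate 100. Pecam1 no longer passed without any 1 of CASP8 IEC-KO replicates 87 and 104 or Casp8 fl/fl replicates 91, 105 and 119 (differences of -0.43 to -0.49), and Lyve1 without any 1 of CASP8 IEC-KO replicates 87 and 104 or Casp8 fl/fl replicates 105 and 119 (differences of -0.64 to -0.82). Replicate 104 had the highest neutrophil mean of that group, 6.06. The other 3 lymphatic genes were lower and did not pass: Prox1, the factor that sets lymphatic identity, by -0.44 ± 0.13 (limma adjusted p = 0.0618), Mmrn1, which encodes a multimerin, by -0.50 ± 0.26 (limma adjusted p = 0.294) and Ccl21a by -0.42 ± 0.20 (limma adjusted p = 0.257). All 8 receptors had lower means, and none passed in limma or had an unadjusted p under 0.05. In a fit of the compared arrays alone, with group weights and with both series pooled, neither Pecam1 (limma adjusted p of 0.178, 0.0657 and 0.0662) nor Lyve1 (limma adjusted p of 0.178, 0.0749 and 0.0864) passed.

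Other cell types moved in the same comparison. All 9 fibroblast genes were lower in CASP8 IEC-KO and 3 of them passed, with a median of -0.38 and 7 at an unadjusted p under 0.05. The fibroblast mean was 8.22 to 8.95 in CASP8 IEC-KO and 8.98 to 9.22 in Casp8 fl/fl, without overlap. None of 10 neutrophil, 11 macrophage and 14 smooth muscle genes passed in limma, beside 1, 5 and 4 at an unadjusted p under 0.05. The smooth muscle mean was 9.58 to 10.20 in CASP8 IEC-KO and 10.19 to 10.41 in Casp8 fl/fl. Of 10 epithelial genes 2 and of 8 hypoxia genes 3 passed higher. The part of fibroblasts and muscle in the Pecam1 and Lyve1 values was not tested.

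In titles 1 to 30, CASP8 IEC-KO against Fadd fl/fl had 0.123% of all genes called and none of the 35 vessel genes by limma, beside 3 at an unadjusted p under 0.05. Of the values 17 were higher and 18 lower. Lyve1 was at 8.05, 7.23, 7.42, 7.71 and 8.28, which overlapped Fadd fl/fl. Pecam1 was at 7.85, 7.77, 7.55, 7.62 and 7.89, so that 4 of 5 arrays were above the highest Fadd fl/fl array. The difference of the CASP8 IEC-KO effect between the series was -0.70 ± 0.17 for Pecam1 (limma adjusted p = 0.203) and -0.61 ± 0.28 for Cdh5, the VE-cadherin gene (limma adjusted p = 0.585), and 0.00513% of all genes and none of the 35 passed in limma, beside 6 at an unadjusted p under 0.05.

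Set against each other as the mean of both series, CASP8 IEC-KO and FADD IEC-KO differed in 5.13% of all genes, 3% lower in CASP8 IEC-KO, and in 1 of the 35 vessel genes. Vcam1 was lower in CASP8 IEC-KO by -0.53 ± 0.15 (limma adjusted p = 0.0316). The CASP8 IEC-KO arrays lay at 6.68, 6.53, 6.32, 6.47 and 6.19 in titles 1 to 30 and at 6.15, 6.30, 6.50, 6.80 and 6.45 in titles 86 to 124, and FADD IEC-KO of the second series at 6.34, 6.78, 7.44, 5.69 and 7.29. In titles 1 to 30 only FADD IEC-KO replicate 24 lay within the CASP8 IEC-KO range, while in the second series the groups overlapped widely. The count was 2 to 4 without any 1 of CASP8 IEC-KO replicates 17, 19 and 104 and FADD IEC-KO replicates 21, 24, 95 and 120. The call was lost without any 1 of 9 arrays, CASP8 IEC-KO replicates 18, 20, 92 and 108 and FADD IEC-KO replicates 22, 23, 25, 117 and 124 (limma adjusted p of up to 0.0998 for Vcam1). Vcam1 also did not pass without replicates 22 and 23 or without replicates 117 and 124 together, where it differed by -0.40 and -0.31 and 0.693% and 0.882% of all genes passed. It was lost as well in a fit of the compared arrays alone and with group weights (limma adjusted p of 0.218 and 0.0643).

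**Figure D2:**
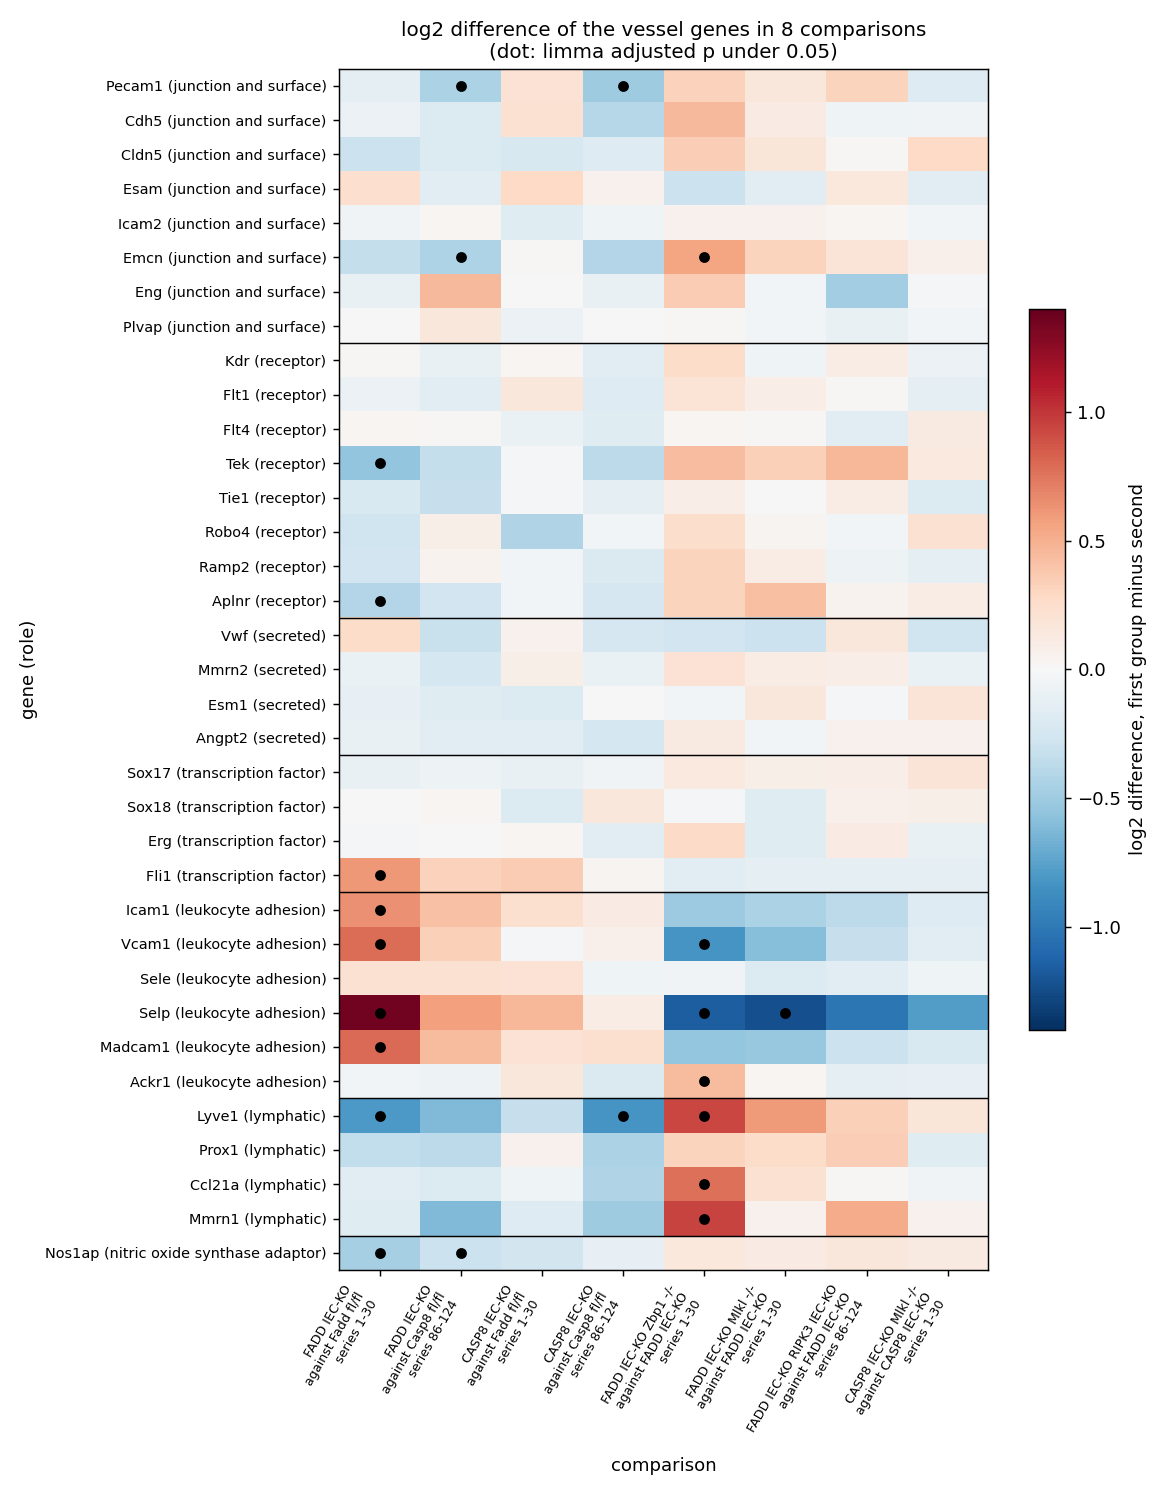
Log2 difference (colour scale, first group minus second) of the 35 measured vessel genes (rows, ordered by role) in 8 comparisons (columns), with a dot where the limma adjusted p was under 0.05. Dots stand at 9 genes in the first column and at 7 in the Zbp1 column, Icam1, Vcam1, Selp and Madcam1 are red in the first column and blue in the Zbp1 column, and the 4 lymphatic genes are blue in the first and red in the Zbp1 column, which share the FADD IEC-KO arrays.

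With loss of Zbp1 in FADD IEC-KO, 3 of the 4 lymphatic genes rose and Prox1 did not pass. FADD IEC-KO Zbp1 -/- against FADD IEC-KO had 10.8% of all genes called, 5.61% higher and 5.14% lower, and 7 of the 35 vessel genes, 5 higher and 2 lower. The lymphatic genes that rose were Lyve1, Mmrn1 and Ccl21a. The list median was 0.20, and 0.85 over the 4 lymphatic genes. This comparison uses the same FADD IEC-KO arrays as the one with Fadd fl/fl, so opposite signs in the 2 are not independent of each other.

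Lyve1 was at 8.61, 7.93, 7.90, 8.12 and 8.43 in FADD IEC-KO Zbp1 -/- replicates 1 to 5. All 5 were above the FADD IEC-KO arrays, and they spanned the range of Fadd fl/fl. The difference was 0.94 ± 0.22 (limma adjusted p = 0.00411). Against Fadd fl/fl, Lyve1 differed by 0.14 ± 0.22 (limma adjusted p = 0.864).

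Mmrn1, whose product multimerin-1 is made by lymphatic endothelium and platelets, was at 7.26, 6.80, 6.45, 6.65 and 6.91 in FADD IEC-KO Zbp1 -/-. FADD IEC-KO had 6.32, 5.67, 6.24, 5.65 and 5.45, and Fadd fl/fl 6.31, 5.73, 5.97, 5.66 and 6.52. All 5 co-deleted arrays were above all FADD IEC-KO arrays, and 4 of 5 above all Fadd fl/fl arrays. The difference was 0.95 ± 0.26 from FADD IEC-KO (limma adjusted p = 0.0127) and 0.78 ± 0.26 from Fadd fl/fl (limma adjusted p = 0.12).

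Ccl21a encodes the CCL21 chemokine of lymphatic vessels and lymphoid tissue, and has near-identical copies. It was at 9.21, 9.15, 8.87, 9.43 and 9.31 in FADD IEC-KO Zbp1 -/- and at 8.79, 8.25, 8.51, 8.08 and 8.50 in FADD IEC-KO, against 8.45, 8.12, 8.35, 8.77 and 9.20 in Fadd fl/fl. The co-deleted arrays were above all FADD IEC-KO arrays, and only Fadd fl/fl replicate 30 reached their range. Ccl21a differed by 0.77 ± 0.20 from FADD IEC-KO (limma adjusted p = 0.0108) and by 0.61 ± 0.20 from Fadd fl/fl (limma adjusted p = 0.12). The probe sets named Ccl21b and Ccl21c carried identical values, with a difference of 0.83 ± 0.24 from FADD IEC-KO (limma adjusted p = 0.0216), so which copy rose is uncertain. The probe set read for Ccl21a is named for a chromosome 4 scaffold of unknown position, whereas the promoter shown lies on the assembled chromosome. Whether that promoter belongs to the copy read is therefore uncertain too. Without FADD IEC-KO replicates 22 and 23 the Ccl21b and Ccl21c difference was 0.84 and did not pass (limma adjusted p = 0.147). Prox1 differed by 0.31 ± 0.13 and did not pass (limma adjusted p = 0.134).

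Emcn and Ackr1 also rose. Emcn was at 7.15, 6.65, 6.68, 6.73 and 6.94 in FADD IEC-KO Zbp1 -/-, all above FADD IEC-KO at 6.48, 6.36, 6.03, 6.29 and 6.23, a difference of 0.55 ± 0.14 (limma adjusted p = 0.00771). Ackr1, which takes up chemokines in venules, was at 5.92, 5.90, 5.77, 5.48 and 5.78 against 5.63, 5.51, 5.15, 5.49 and 4.86, a difference of 0.44 ± 0.13 (limma adjusted p = 0.0194). For Emcn the groups did not overlap, and for Ackr1 replicate 4 lay within the FADD IEC-KO range. The Ackr1 call was lost without any 1 of FADD IEC-KO replicates 23 and 25 or co-deleted replicates 1 and 2 (limma adjusted p up to 0.0938). In a fit of the compared arrays alone neither Emcn (limma adjusted p = 0.0512) nor Ackr1 (limma adjusted p = 0.129) passed. In total 4 genes had groups that did not overlap, beside 5.8% of all genes.

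Selp and Vcam1 fell. Selp was at 4.48, 4.95, 5.04, 5.04 and 4.62 in FADD IEC-KO Zbp1 -/-, all below FADD IEC-KO replicates 21 to 24 and overlapping replicate 25. The Selp difference was -1.16 ± 0.38 (limma adjusted p = 0.0406). Vcam1 was at 6.53, 5.71, 6.50, 6.33 and 6.97, of which only replicate 5 reached the FADD IEC-KO range, a difference of -0.82 ± 0.21 (limma adjusted p = 0.0107). The Selp call was lost without any 1 of FADD IEC-KO replicates 22 and 23 or co-deleted replicates 1, 2, 3 and 5 (limma adjusted p up to 0.275), and the Vcam1 call without FADD IEC-KO replicate 22 (-0.71, limma adjusted p = 0.0559) or co-deleted replicate 2 (-0.65, limma adjusted p = 0.0549). In a fit of the compared arrays alone both calls were lost (limma adjusted p of 0.21 for Selp and 0.103 for Vcam1), and trend and robust moderation ended that of Selp (limma adjusted p = 0.0514).

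Without both FADD IEC-KO replicates 22 and 23, 0.621% of all genes and none of the vessel genes passed in limma against FADD IEC-KO Zbp1 -/-, beside 12 at an unadjusted p under 0.05. Lyve1 then differed by 0.83 (limma adjusted p = 0.098), Ccl21a by 0.74 (limma adjusted p = 0.117), Mmrn1 by 1.01 (limma adjusted p = 0.0875), Emcn by 0.49 (limma adjusted p = 0.116), Ackr1 by 0.44 (limma adjusted p = 0.135), Vcam1 by -0.57 and Selp by -0.29. In the full comparison 8 of 10 neutrophil genes and 13 of 14 interferon-gamma response genes passed lower, and 13 of 14 smooth muscle genes, 4 of 8 pericyte genes, 4 of 9 fibroblast genes and 3 of 6 platelet genes passed higher. The fibroblast median was 0.52, with 6 genes higher and 3 lower, and the fibroblast mean was 8.68 to 9.44 in FADD IEC-KO Zbp1 -/-. Epithelial genes gave 1 of 10 higher and 1 lower and hypoxia genes 1 of 8 lower. Without replicates 22 and 23, 1 pericyte and 1 fibroblast gene passed higher and no neutrophil, smooth muscle or platelet gene passed in limma, beside 0, 11 and 2 at an unadjusted p under 0.05. The neutrophil mean was 4.71 to 5.01 in FADD IEC-KO Zbp1 -/-, and the smooth muscle mean was 10.06 to 10.31. The part of muscle, fibroblasts, platelets and leukocytes in the vessel gene values was not tested.

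**Figure D3:**
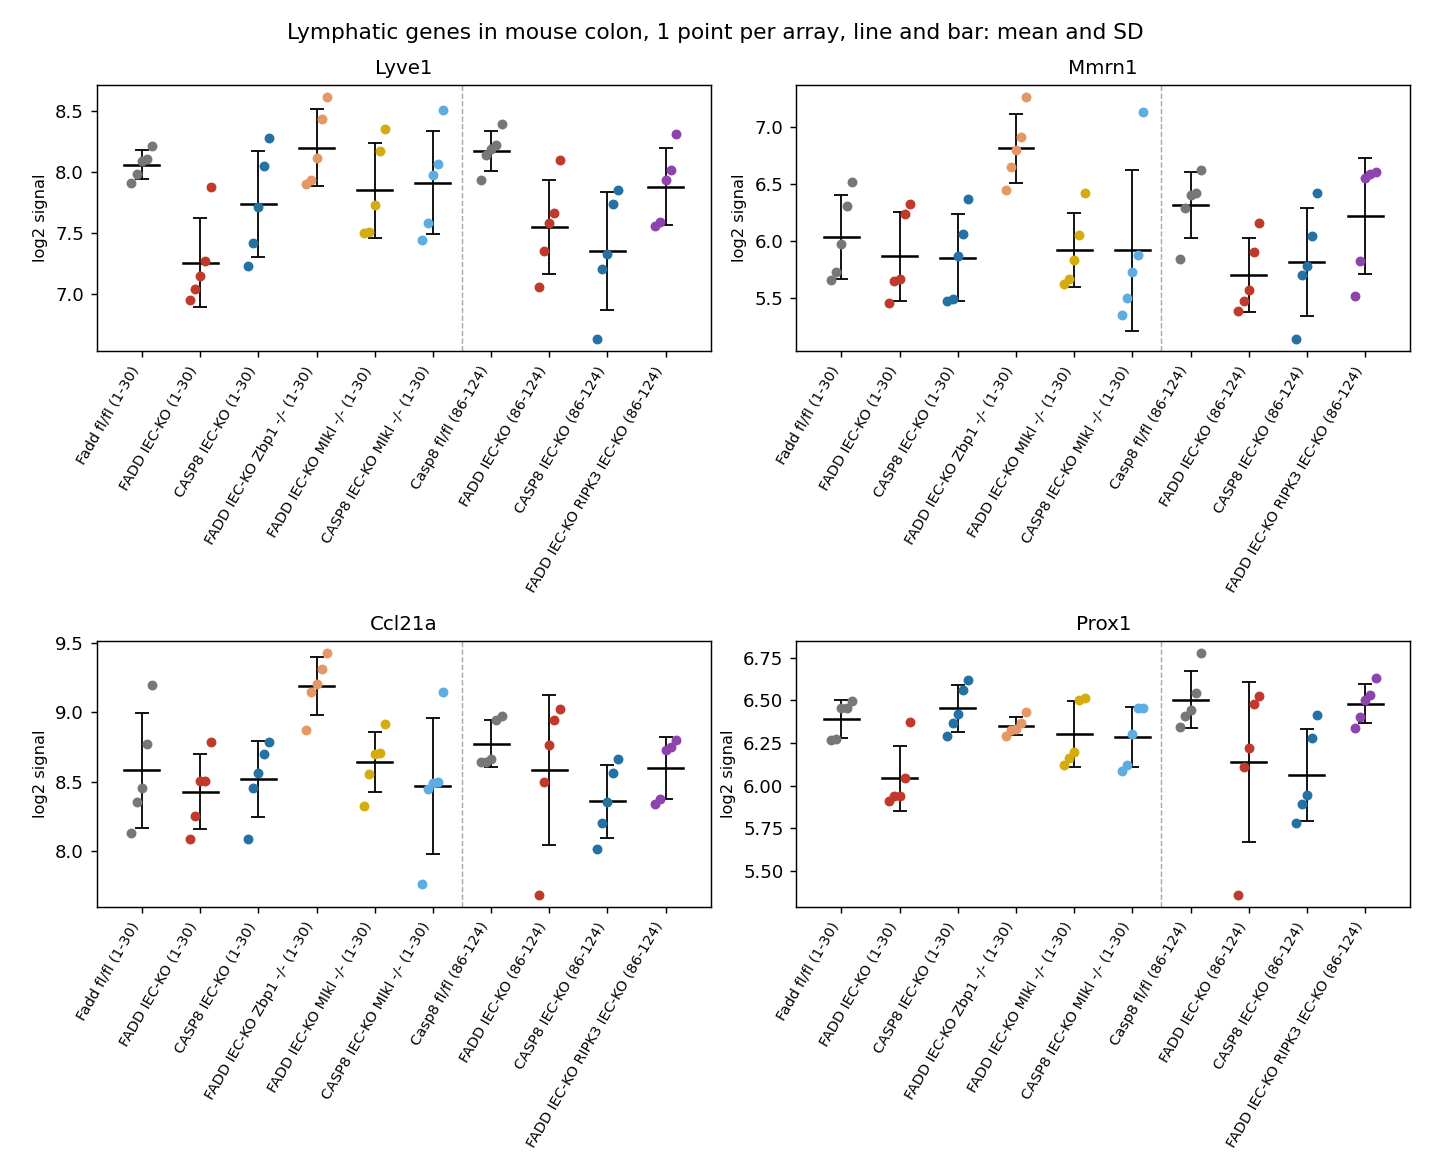
Log2 signal of Lyve1, Mmrn1, Ccl21a and Prox1 (vertical axes) in the 10 groups (horizontal axis), 1 point per array, with the group mean as a line and the SD as a bar. Mmrn1 runs from 6.45 to 7.26 and Ccl21a from 8.87 to 9.43 in FADD IEC-KO Zbp1 -/-, above all FADD IEC-KO arrays of titles 1 to 30.

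Loss of Mlkl in FADD IEC-KO left 1 call. FADD IEC-KO Mlkl -/- against FADD IEC-KO had 5.85% of all genes called, 2.93% lower, and 1 of the 35 vessel genes, Selp, which was lower. Selp was at 4.59, 4.87, 4.56, 4.84 and 4.91 in replicates 11 to 15, all below FADD IEC-KO replicates 21 to 24 and overlapping replicate 25 at 4.84. It differed by -1.23 ± 0.38 (limma adjusted p = 0.0424). The call was lost without any 1 of FADD IEC-KO replicates 22 and 23 or of the 5 co-deleted arrays (limma adjusted p up to 0.275 for Selp), and the difference was -0.36 without both replicates 22 and 23, where 0.041% of all genes and no vessel gene passed in limma, beside 2 vessel genes at an unadjusted p under 0.05. It was also lost in a fit of the compared arrays alone (limma adjusted p = 0.218) and with trend and robust moderation (limma adjusted p = 0.0541). The count of vessel genes was 5 without FADD IEC-KO replicate 21 and 4 without replicate 24. Lyve1 was at 8.17, 8.35, 7.50, 7.73 and 7.51, a difference of 0.59 ± 0.22 that did not pass (limma adjusted p = 0.09), and Mmrn1 differed by 0.06 ± 0.26 (limma adjusted p = 0.935). Neutrophil genes gave 6 of 10 lower, hypoxia genes 1 of 8 lower, smooth muscle genes 14 of 14 higher, fibroblast genes 2 of 9 higher, pericyte genes 2 of 8 higher and epithelial genes 1 of 10 higher, and their part in the Selp and Lyve1 values was not tested.

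Loss of RIPK3 in the epithelium of FADD IEC-KO gave no call among the vessel genes. FADD IEC-KO RIPK3 IEC-KO against FADD IEC-KO in titles 86 to 124 had 0.754% of all genes called and 0 of 35 vessel genes by limma, beside 7 at an unadjusted p under 0.05. Eng was at 7.79, 7.88, 7.81, 7.73 and 7.61 in replicates 88, 93, 112, 113 and 123, all below the FADD IEC-KO arrays and within the range of Casp8 fl/fl. It differed by -0.49 ± 0.18 (limma adjusted p = 0.198), and was the only vessel gene without overlap, beside 3.28% of all genes. Selp was at 4.75, 4.71, 5.12, 4.55 and 4.01, a difference of -1.01 ± 0.38 (limma adjusted p = 0.194), and of -0.23 without FADD IEC-KO replicates 117 and 124 (limma adjusted p = 0.908). The 4 lymphatic genes were higher, Mmrn1 by 0.52 ± 0.26, and none passed in limma, beside 2 at an unadjusted p under 0.05. Without replicates 117 and 124, 0.195% of all genes and none of the 35 passed in limma, beside 4 at an unadjusted p under 0.05, and Eng differed by -0.51 and Mmrn1 by 0.60.

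CASP8 IEC-KO Mlkl -/- against CASP8 IEC-KO in titles 1 to 30 had 0.421% of all genes called and 0 of 35 vessel genes by limma, beside 2 at an unadjusted p under 0.05. Selp was at 3.96, 4.76, 5.00, 4.07 and 3.83 in replicates 6 to 10 and at 5.14, 5.28, 4.99, 4.83 and 5.27 in CASP8 IEC-KO. The groups overlapped at replicate 8, and the difference was -0.78 ± 0.38 (limma adjusted p = 0.372). All 6 adhesion genes were lower and none passed in limma, beside 1 at an unadjusted p under 0.05. The difference in the Mlkl effect between CASP8 IEC-KO and FADD IEC-KO passed for 0.0154% of all genes and for none of the 35 in limma, beside 1 at an unadjusted p under 0.05, Prox1 at -0.43 ± 0.19 (limma adjusted p = 0.397). Without FADD IEC-KO replicates 22 and 23 it was -0.35 for Prox1, and none of the 35 passed in limma, beside 2 at an unadjusted p under 0.05.

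Set against the floxed controls of their series, the co-deletions gave no vessel gene call by limma. Against Fadd fl/fl, FADD IEC-KO Zbp1 -/- had 1.07% of all genes called and 5 vessel genes at an unadjusted p under 0.05, and 2 vessel genes passed without Fadd fl/fl replicate 30. The Mlkl co-deletions had 0.159% of all genes called with FADD IEC-KO and 0.0462% with CASP8 IEC-KO, and 2 and 0 vessel genes at an unadjusted p under 0.05. Against Casp8 fl/fl, the RIPK3 co-deletion had 0.0769% of all genes called and 0 vessel genes at an unadjusted p under 0.05. Groups of Nos1ap did not overlap between FADD IEC-KO Mlkl -/- (8.03, 8.11, 7.98, 7.99 and 7.74) and Fadd fl/fl, a difference of -0.34 ± 0.10 (limma adjusted p = 0.147), nor did those of Tie1 (6.30, 6.39, 6.39, 6.47 and 6.45 against 6.80, 6.56, 6.66, 6.57 and 6.50), a difference of -0.22 ± 0.12 (limma adjusted p = 0.581). These were 2 of 35 genes without overlap, beside 2.92% of all genes. A p that misses the threshold does not show that co-deleted and floxed colon were alike, and the SE of 0.38 for Selp leaves wide room.

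**Figure D4:**
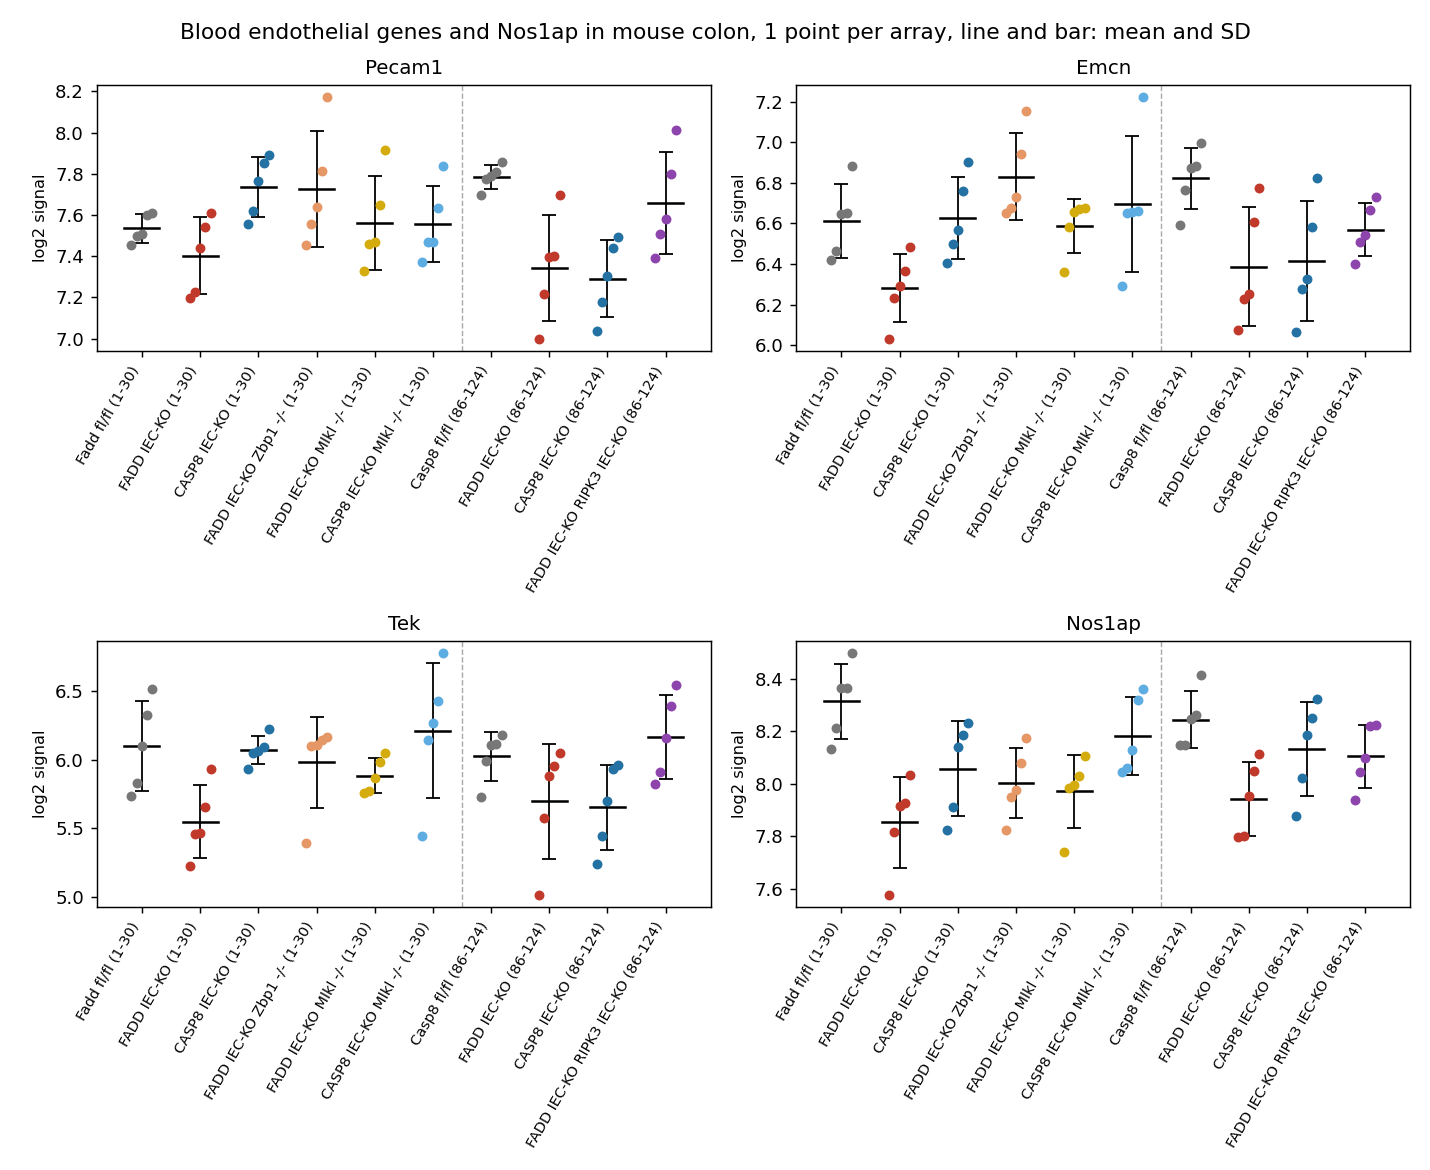
Log2 signal of Pecam1, Emcn, Tek and Nos1ap (vertical axes) in the 10 groups (horizontal axis), 1 point per array, with the group mean as a line and the SD as a bar. Pecam1 of Casp8 fl/fl lies between 7.70 and 7.86, above the CASP8 IEC-KO arrays of titles 86 to 124, and Nos1ap of Fadd fl/fl lies between 8.13 and 8.50, above FADD IEC-KO of titles 1 to 30.

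Over the first 8 comparisons, the single knockouts against floxed controls and the co-deletions against single knockouts, 14 of the 35 vessel genes passed at least once and 21 in none. Lyve1 and Selp passed in 3 each, and Pecam1, Emcn, Vcam1 and Nos1ap in 2 each. The 21 without a call included the junction genes Cdh5, Cldn5 and Esam, all 3 VEGF receptor genes, the 4 secreted genes Vwf, Mmrn2, Esm1 and Angpt2, and Prox1. Group means of Flt4, the VEGF receptor of lymphatic vessels, spanned 0.19 over the 10 groups and those of Plvap, the diaphragm protein of fenestrated capillaries, 0.28, whereas Selp spanned 1.66, Mmrn1 1.12, Vcam1 0.95 and Lyve1 0.94. Of the 35 genes 13 were among the dimmest 40% of all genes, Selp, Madcam1, Ackr1 and Tek included.

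Other genes of the vessel pathways came from lists written by hand. Of 28 measured vessel growth and Notch pathway genes 2 rose and 5 fell in FADD IEC-KO against Fadd fl/fl, where 18.7% of all genes passed. Nrp2, a co-receptor of VEGF-C and semaphorins, differed by -0.81 ± 0.16 (limma adjusted p = 0.000369), Jag1, a Notch ligand, by 0.44 ± 0.10 (limma adjusted p = 0.00133) and Sema3a, a semaphorin that repels vessels and axons, by -0.75 ± 0.18 (limma adjusted p = 0.00228). Of 24 other endothelial genes 1 rose and 2 fell, beside the same 18.7% of all genes, with Cd34, a sialomucin of capillaries and fibroblasts, at -0.95 ± 0.17 (limma adjusted p = 0.000224), the water channel gene Aqp1 at -0.57 ± 0.15 (limma adjusted p = 0.00517) and Ehd4, a gene of membrane recycling, at 0.35 ± 0.10 (limma adjusted p = 0.0135). Of 11 other lymphatic genes only Itga9, an integrin chain of lymphatic valves and smooth muscle, passed, at -0.83 ± 0.15 (limma adjusted p = 0.000281), and of 8 pericyte genes 3 fell, among them Cspg4 and Rgs5. The medians of the 3 vessel lists were -0.06, -0.08 and -0.13, beside -0.02 over all genes. Without replicates 22 and 23, 1 gene of each of the 3 lists passed, beside 3.5% of all genes: Nrp2 at -0.72 (limma adjusted p = 0.0224), Cd34 at -0.81 (limma adjusted p = 0.0195) and Itga9 at -0.63 (limma adjusted p = 0.0326). Jag1 then differed by 0.31, Sema3a by -0.52, Aqp1 by -0.51, Ehd4 by 0.33, Cspg4 by -0.40 and Rgs5 by -0.58, and none of these passed.

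In titles 86 to 124, FADD IEC-KO against Casp8 fl/fl gave 2 calls among the 28 vessel growth and Notch genes, 1 among the 24 other endothelial and 2 among the 11 other lymphatic genes, beside 11% of all genes. Notch1 rose by 0.28 ± 0.08 and the lymphatic growth factor gene Vegfd differed by -0.40 ± 0.13, Cd34 by -0.51 ± 0.17, Itga9 by -0.47 ± 0.15 and Fgl2, a fibrinogen-like protein of endothelium and macrophages, by -0.41 ± 0.12 (limma adjusted p of 0.017, 0.0401, 0.0445, 0.0389 and 0.0206). Without replicates 117 and 124 Notch1 passed at 0.43 (limma adjusted p = 0.00109), and Vegfd at -0.25, Cd34 at -0.37, Itga9 at -0.21 and Fgl2 at -0.43 did not. In CASP8 IEC-KO against Casp8 fl/fl 3 genes fell, 1 of each list, beside 2.46% of all genes. They were Calcrl, the receptor partner of RAMP2 for adrenomedullin, at -0.67 ± 0.16 (limma adjusted p = 0.0199), Ptprb, the phosphatase of VE-cadherin and TIE2, at -0.71 ± 0.16 (limma adjusted p = 0.0159), and Fgl2 at -0.52 ± 0.12 (limma adjusted p = 0.0159). For Calcrl and Ptprb the groups did not overlap.

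With Zbp1 loss in FADD IEC-KO, 3 of the 28 vessel growth and Notch genes rose and 1 fell, beside 10.8% of all genes. Nrp2 differed by 0.71 ± 0.16 (limma adjusted p = 0.00282), Jag1 by -0.35 ± 0.10 (limma adjusted p = 0.0159) and Calcrl by 0.55 ± 0.16 (limma adjusted p = 0.0202). Of the 24 other endothelial genes 3 rose, beside the same share of all genes. Cd34 differed by 0.86 ± 0.17 (limma adjusted p = 0.00133), the carbonic anhydrase gene Car4 by 0.63 ± 0.20 and Aqp1 by 0.45 ± 0.15. Which cells of the colon gave the Car4 signal was not tested. Of the 11 other lymphatic genes 3 rose, Itga9 by 0.52 ± 0.15 (limma adjusted p = 0.0214) and the probe sets of Ccl21b and Ccl21c. Values of Ccl21b and Ccl21c were identical, so those calls stand for 1 measurement. With Mlkl loss, Nrp2 rose by 0.66 ± 0.16, Sema3a by 0.60 ± 0.18, Cd34 by 0.79 ± 0.17, Aqp1 by 0.53 ± 0.15 and Itga9 by 0.57 ± 0.15 (limma adjusted p of 0.00779, 0.0323, 0.00501, 0.0235 and 0.0195), and no gene of these 3 lists fell. These were 5 calls in 63 genes, beside 5.85% of all genes.

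None of these list calls was left without FADD IEC-KO replicates 22 and 23 in limma, beside 10 of the 63 genes with Zbp1 loss and 5 with Mlkl loss at an unadjusted p under 0.05. The 10 count Ccl21b and Ccl21c separately, though their values were identical. With Zbp1 loss Nrp2 then differed by 0.62, Calcrl by 0.59, Cd34 by 0.72, Aqp1 by 0.39, Itga9 by 0.33, Car4 by 0.21 and Jag1 by -0.22. With Mlkl loss the values were 0.57 for Nrp2, 0.37 for Sema3a, 0.65 for Cd34, 0.46 for Aqp1 and 0.37 for Itga9. Limma adjusted p values ran from 0.0629 for Cd34 with Zbp1 loss to 0.663 for Car4.

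**Figure D5:**
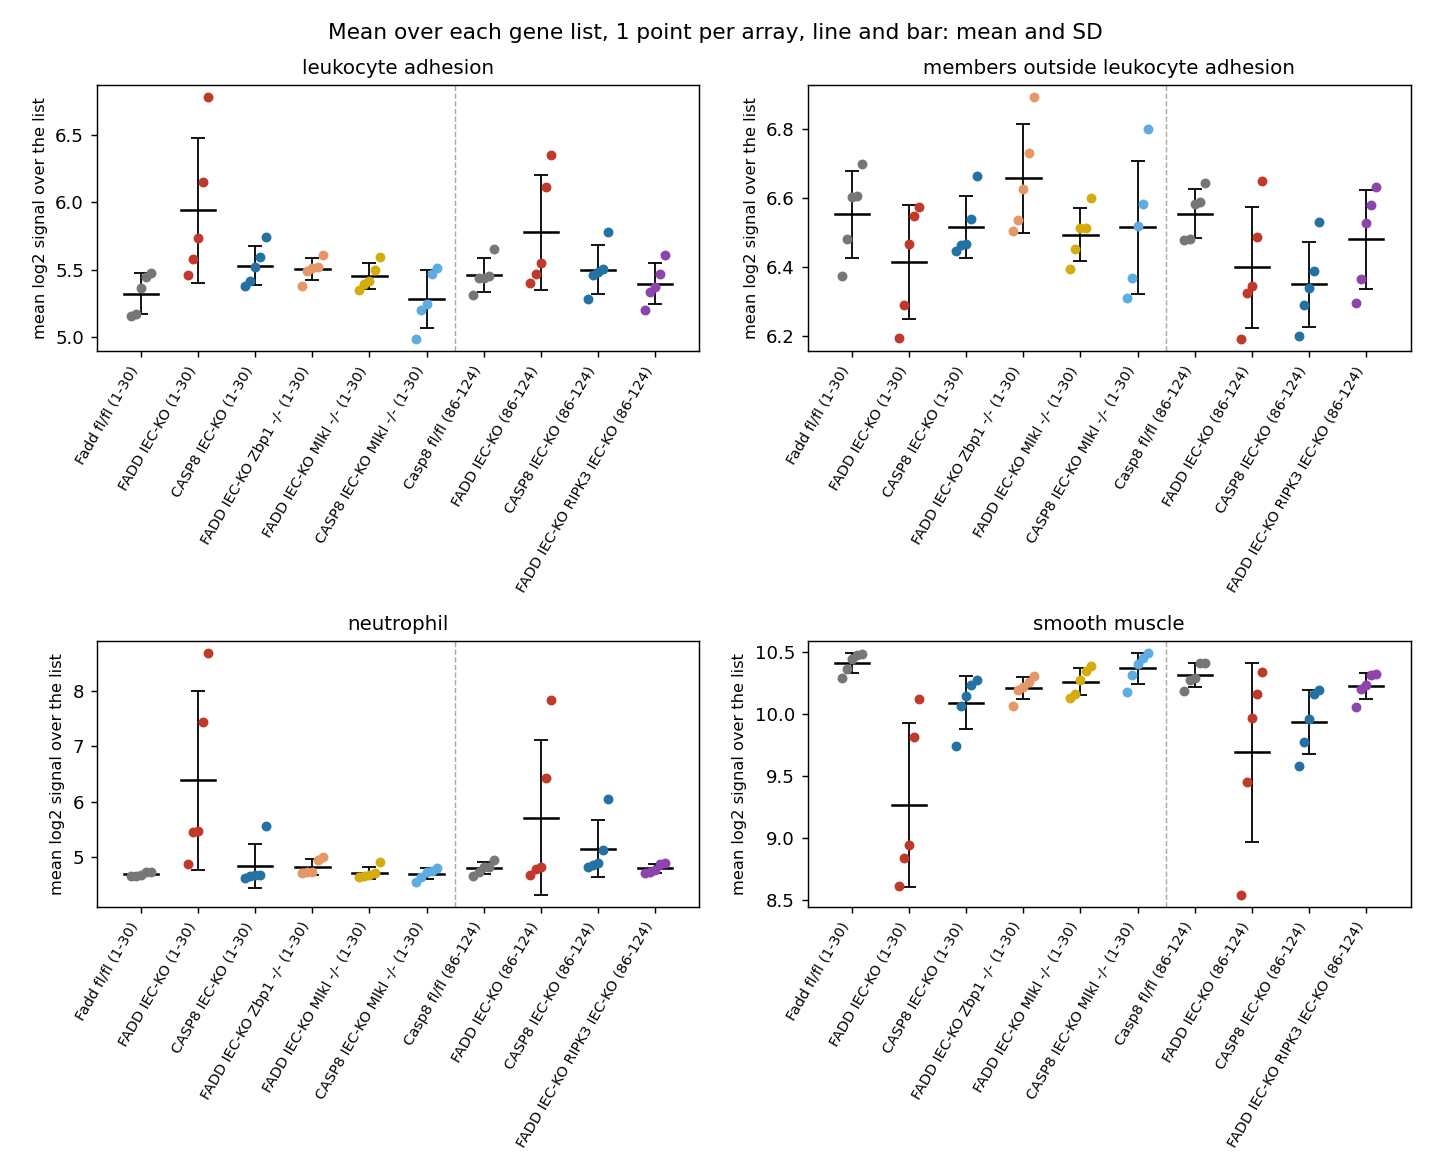
Mean log2 signal over 4 gene lists (vertical axes) in the 10 groups (horizontal axis), 1 point per array, with the group mean as a line and the SD as a bar. In FADD IEC-KO of titles 1 to 30 the 6 leukocyte adhesion genes reach 6.78 and the neutrophil genes 8.69 in replicate 22, and the smooth muscle mean is as low as 8.62, against at least 10.29 in Fadd fl/fl.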

How the data were processed

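Whole colon RNA of 50 mice, 100 ng per sample, was read on Affymetrix arrays, 1 array per mouse. Values were deposited on the log2 scale, a signal for each probe set, made with Affymetrix Expression Console and the Transcriptome Analysis Console, per the submitters' processing notes, with versions and normalization algorithm not given in the sources used here. Array medians were 6.41 to 6.47. Of 22142 probe sets 19527 had a gene symbol and 2615 had none, and 33 were left out for a brighter probe set of the same gene, which left 19494 genes.

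Groups came from the sample titles and genotypes. A limma model (3.58.1, R 4.3.3) with 1 mean per group over all 50 arrays (40 residual degrees of freedom) gave 16 comparisons, with Benjamini-Hochberg adjustment over 19494 genes and a threshold of 0.05. The fit was tested on simulated data with the same spread per gene in all groups. The real groups differ in spread, so that test does not bear on calls that depend on single arrays. Whether the 2 title series are batches is not stated, so comparisons stay within a series, except for the differences between series and the mean over both. Groups share no replicate numbers.

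The members and lists were chosen with earlier results of these data known. Genes are described array by array if they passed or had groups without overlap in 1 of the first 8 comparisons, and, from the other vessel lists, up to 3 genes with the lowest adjusted p. Other genes of those lists, and the motif, were named after their values or sequences were seen. Promoters were read with Python 3.11.15. A further motif that was searched is not reported here.

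Alternatives were quantile normalization, no dim genes, only the compared arrays, trend and robust moderation, group weights, the mean of all probe sets, pooled series, and leaving out each array or replicates 22 and 23. Leaving out replicates 117 and 124 was chosen after seeing the data.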

Additional observations from a re-analysis of the deposited data

Results flagged for a closer look

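In groups of 5 arrays, a lowest or highest array counts as set apart where its gap to the nearest other array exceeds 0.71 of the whole range of the group. This holds for 5 of 170 groups examined, those of the 16 genes described array by array and of the mean over all 35 genes, and chance gives about 1 in 20, or 8.5 of 170.

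Ackr1, the venule chemokine receptor, was 5.08 in CASP8 IEC-KO replicate 92 of titles 86 to 124, below the other 4 at 5.50 to 5.56. In FADD IEC-KO Zbp1 -/-, replicate 2 was low for Tek, the angiopoietin receptor, at 5.39 against 6.10 to 6.17. The same replicate 2 was low for Madcam1, at 5.27 against 5.69 to 5.82. Fli1, the ETS factor of endothelium and blood cells, was 7.23 in FADD IEC-KO Zbp1 -/- replicate 5, above the other 4 at 6.43 to 6.63. Vcam1 was 6.85 in FADD IEC-KO Mlkl -/- replicate 15, above the other 4 at 6.54 to 6.62.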

How the results depend on the processing

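Counts of vessel genes called were 9 in FADD IEC-KO of titles 1 to 30, 3 in FADD IEC-KO and 2 in CASP8 IEC-KO of titles 86 to 124 against floxed controls, 7 with Zbp1 loss, 1 with Mlkl loss and 1 in CASP8 IEC-KO against FADD IEC-KO. With only the compared arrays in the fit, which leaves fewer arrays for the spread, they were 4, 0, 0, 3, 0 and 0. Without the dimmest 40% of genes the second was 6 and that with Mlkl loss 0, as it also was with trend and robust moderation. Group weights gave 1 in FADD IEC-KO of titles 86 to 124, 0 in CASP8 IEC-KO and 0 in CASP8 IEC-KO against FADD IEC-KO, and 1 each, in place of 0, in FADD IEC-KO Zbp1 -/- and FADD IEC-KO Mlkl -/- against Fadd fl/fl. Without replicates 22 and 23 the counts were 2 in FADD IEC-KO, 0 with Zbp1 loss, 0 with Mlkl loss and 0 against CASP8 IEC-KO. Without replicates 117 and 124, chosen after seeing the data, they were 1 in FADD IEC-KO and 0 against CASP8 IEC-KO. Pooling the series with a series term gave 0 for CASP8 IEC-KO. On leaving out 1 array the ranges were 5 to 10, 1 to 5, 0 to 4, 5 to 10, 0 to 5 and 0 to 4 in the order above, and 0 to 2 for FADD IEC-KO Zbp1 -/- against Fadd fl/fl. The cause of these changes was not tested. No called gene changed direction in any alternative run, whereas Selp and Vcam1, which had not passed in titles 86 to 124, turned to -0.21 and -0.10 without replicates 117 and 124, and list means moved by less than the spread between arrays in all. No paired analysis was possible because the groups share no replicate numbers. No detection calls were at hand, so which signals lie near background is unknown.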
